A study of Homo sapiens with 12 samples.

Results

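The transcription factor NRF2 (gene NFE2L2) drives a battery of genes for detoxification and redox balance, and 39 genes, NFE2L2, its inhibitor KEAP1, its partner MAFG and 36 targets, were followed here in non-small cell lung cancer (NSCLC) cells. The members were listed by name from general knowledge of the pathway, with earlier results of these data known, and each was found under its symbol among the 19973 genes of the expression table. H460 is a line from a large cell lung carcinoma and A549 one from a lung adenocarcinoma. Each line was left non-treated (control) or given isovalerylspiramycin I (ISP-I), a component of the macrolide antibiotic carrimycin, at 10 µM for 48 h. Each of the 4 groups had 3 RNA-seq libraries, 12 in all. The labels list the genotype of every group as WT, while the study's text states that H460 and A549 both carry inactivating KEAP1 mutations. All groups therefore share that background, there is no line with intact KEAP1, each line is a single established line, and expression values do not read the mutation itself.

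NRF2 is made continuously and, in cells with intact KEAP1, is bound by KEAP1, handed to a cullin 3 ubiquitin ligase and degraded. Oxidants and electrophiles modify cysteines of KEAP1, NRF2 then escapes, pairs with a small MAF protein and binds antioxidant response elements (AREs) before its target genes. Loss of KEAP1 in lung cancer leaves NRF2 active without a stimulus, and such tumours are known for high levels of NQO1, aldo-keto reductases and enzymes that make glutathione and NADPH. Glutathione and thioredoxin are the main thiol systems that reduce peroxides and oxidised proteins, and NADPH supplies their electrons.

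Values are the authors' FPKM, the fragments of a gene divided by its listed length and by the total of the library, so levels can be compared between genes. Libraries are named by their place within a group, and depth was 14225849 to 17874422 reads on genes. Pairs of libraries within a group differed by 2.95 to 92.0 times read sampling noise (chi-square divided by its degrees of freedom), so no pair was the same library. ISP-I library 3 of H460 stood apart from libraries 1 and 2 (54.4 and 92.0, against 21.5 between those), and A549 control library 3 stood apart from the other A549 controls (26.7 and 30.8, against 3.3). The study speaks of replicates in each group and, for its means in general, of independent experiments, but does not tie these libraries to separate cultures. The p values therefore measure the spread between these libraries, which may be technical. A lower level of a transcript in fewer cells and less of it in every cell cannot be told apart in such bulk RNA. Of 5 epithelial markers, 3 reached a mean of 0.1 FPKM in H460 controls, where CDH1 was listed at 0, and 5 did in A549 controls. Their summed level was 355.5 to 431.6 FPKM in H460 controls and 327 to 415 after ISP-I. In A549 it was 924 to 1252 and then 628 to 659 FPKM, without overlap. Of 4 blood markers, with CD3E listed at 0 throughout, the sum was 5.18 to 6.48 FPKM in H460 controls and 0.849 to 1.66 after ISP-I, and in A549 0.748 to 1.32 and then 0.0727 to 0.333. The sum of 5 fibroblast markers was 1.78 to 2.15 FPKM in H460 controls and 2.99 to 3.44 after ISP-I, and overlapped in A549. That of 3 endothelial markers stayed at or below 0.368 FPKM in each library. The part of these shifts in the responses below was not tested.

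In H460, 2 members rose and 10 fell by more than 2-fold after ISP-I, of 37 tested (limma on log2(FPKM + 1), with p adjusted over all genes tested by Benjamini-Hochberg and called under 0.05). A member is said to rise or fall where its adjusted p was under 0.05, and a fold over 2 is named where it was met. NFE2L2 and NR0B1 rose, and GSR, PGD, IDH1, CBR1, AKR1B10, AKR1C1, AKR1C2, AKR1C3, ALDH3A1 and EPHX1 fell. Of all 13423 genes tested in H460, 10.5% rose and 15.2% fell by the same rule, so the share of members that fell was above that of all genes and the share that rose was below it. In A549, by the same rule, NR0B1 rose and 6 of 39 members tested fell, namely GSR, GPX2, AKR1B10, ALDH3A1, CYP4F11 and PIR, against 4.2% higher and 3.51% lower of 13705 genes, so the share that fell was again above that of all genes. GSR, AKR1B10 and ALDH3A1 fell, and NR0B1 rose, in both lines, as did 2.43% and 2.78% of all genes tested in both. At any fold change, 8 members rose and 19 fell in H460 (27.6% and 41.5% of all genes), and 7 rose and 23 fell in A549 (30.5% and 27.0%). The median log2 fold change of the members was -0.42 in H460, where that of all genes was -0.15, and -0.36 in A549, where that of all genes was 0.02. Scaling the libraries by median-of-ratios moved the H460 median of all genes by 0.154 and the changes of the members by 0.031 to 0.282, with a median of 0.278. H460 changes therefore hold only relative to the scaling. Under that scaling 4 members rose and 7 fell in H460, and of all genes 14.6% rose and 11.3% fell. With voom on recovered reads 5 members rose and 9 fell in H460, beside 23.5% and 20.9% of all genes. In A549 1 rose and 7 fell under median-of-ratios scaling (3.79% and 3.7% of all genes), and 1 and 9 with voom (10.1% and 9.65%). The pseudocount of 1 draws changes of low genes toward 0, which lowers the shares of all genes, and members were not matched to genes of like level.

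The groups did not overlap for 31 of the 39 members in H460 and for 33 in A549, against 72.7% and 65.5% of all genes tested, so that count was near the background in H460. Without library 3 of both H460 groups, an alternative chosen after the data were seen, 2 members rose and 13 fell past 2-fold there, beside 11.7% and 16.5% of all genes in that fit. Without A549 control library 3, 8 members fell past 2-fold in A549 (3.63% of all genes), with GCLC (-1.05) and IDH1 (-1.01) added.

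**Figure D1:**
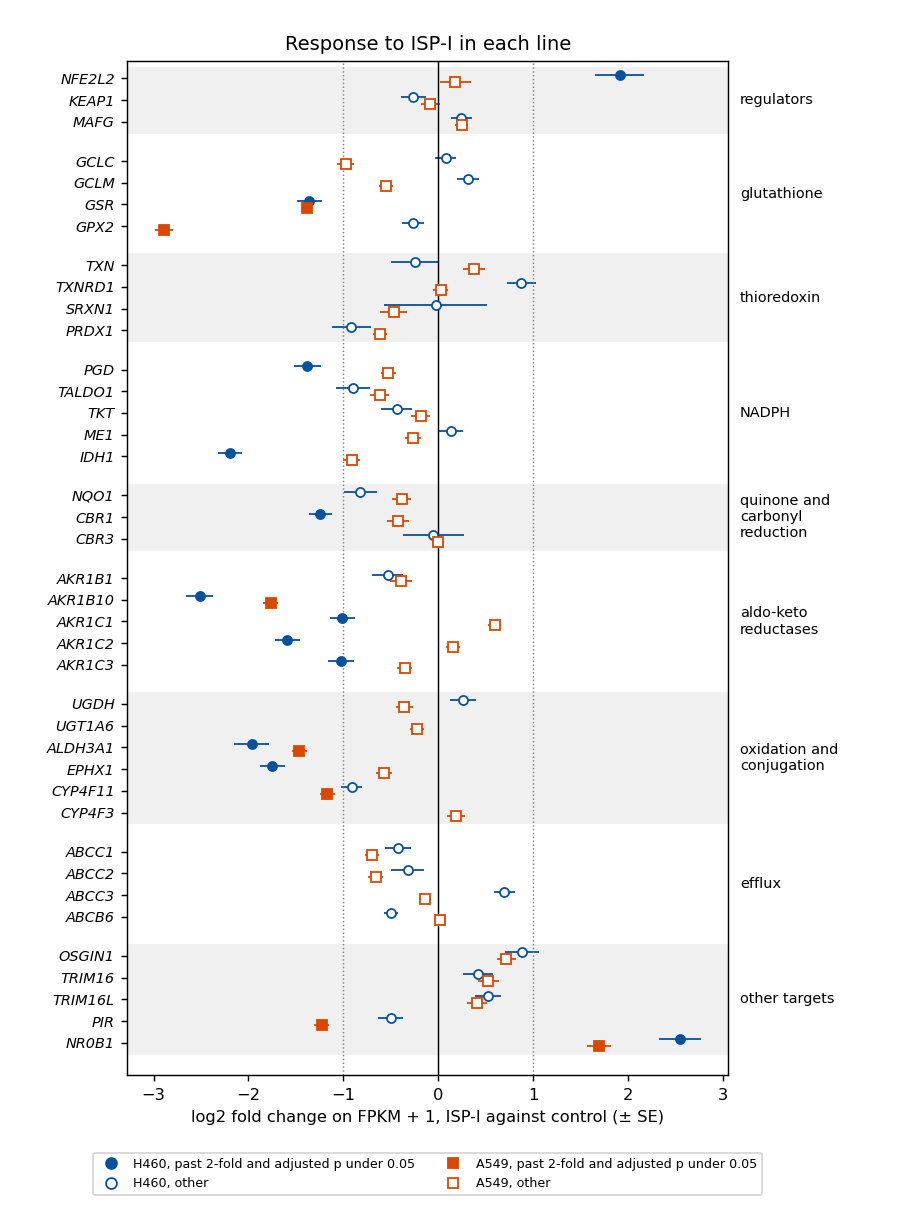
Log2 fold change of each member after ISP-I, on log2(FPKM + 1) with its standard error (x axis), for H460 (circles) and A549 (squares), grouped by role; filled marks passed 2-fold and adjusted p under 0.05, and dotted lines mark 2-fold. Filled marks lie to the left in the rows of GSR, AKR1B10 and ALDH3A1 for both lines, the AKR1C rows separate the lines, and NR0B1 lies to the right for both. UGT1A6 and CYP4F3 have no H460 mark because their mean was under 0.1 FPKM.

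In non-treated cells the listed levels of the battery ranged from some of the highest of all genes to under 1 FPKM. By mean FPKM, 7 members were among the 100 highest genes in H460 controls and 7 in A549 controls, and 18 were among the 500 highest in each. Those of H460 were PRDX1 (688 ± 105 FPKM, mean ± SD of 3 libraries here and below), AKR1B10 (519 ± 28.1), TXN (468 ± 50.1), NQO1 (465 ± 39.3), TXNRD1 (354 ± 15.9), ALDH3A1 (339 ± 21.2) and PGD (338 ± 25.2). In A549 AKR1B10 led with 1010 ± 38.1 FPKM, the 17th highest gene, and AKR1B1 was in that list in place of TXNRD1. CBR3, ABCB6 and UGT1A6 had means under 1 FPKM in both lines, and GPX2 and CYP4F3 did so in H460. ABCB6 and UGT1A6 overlap protein-coding genes on their own strand, so their low values may leave out reads. NFE2L2 itself was modest, at 10.4 ± 1.45 FPKM in H460 and 8.799 ± 2.26 in A549, with overlapping libraries.

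Between the non-treated lines, 7 members were higher in H460 and 5 lower of 39 tested (fold over 2 and adjusted p under 0.05, limma), against 5.64% and 8.78% of 13532 genes. The groups did not overlap for 31 members (64.8% of all genes). The widest gap was in GPX2, the selenium-dependent glutathione peroxidase known from gut epithelium, with 0.649, 0.395 and 0.761 FPKM in H460 and 69.03, 69.4 and 83.04 in A549. The A549 mean was 123 times that of H460 (log2 difference -5.55, SE 0.12, limma adjusted p 5.77e-09). CYP4F11, a fatty acid hydroxylase of the cytochrome P450 family, went the other way, with 35.05, 34.9 and 38.98 FPKM in H460 and 3.89, 3.73 and 3.28 in A549 (3.01, SE 0.092, limma adjusted p 2.96e-08). AKR1C1 was also higher in H460 (143, 138 and 125 against 17.5, 17.97 and 19.4 FPKM), while its neighbour AKR1C2 was lower there (91.6, 87.5 and 87.6 against 199, 196 and 214). For each of these genes every library of one line lay outside the range of the other. NR0B1, OSGIN1, EPHX1 and ME1 were higher in H460 by log2 differences of 2.59, 1.44, 1.32 and 1.19. ABCC3, AKR1B1 and CYP4F3 were lower in H460 by log2 differences of -2.40, -1.70 and -1.68. SRXN1 was called higher in H460 (1.18, SE 0.35, limma adjusted p 0.0189), but its control libraries held 3.63, 3.15 and 10.7 FPKM, and without library 3 the difference was 0.71 and under 2-fold.

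**Figure D2:**
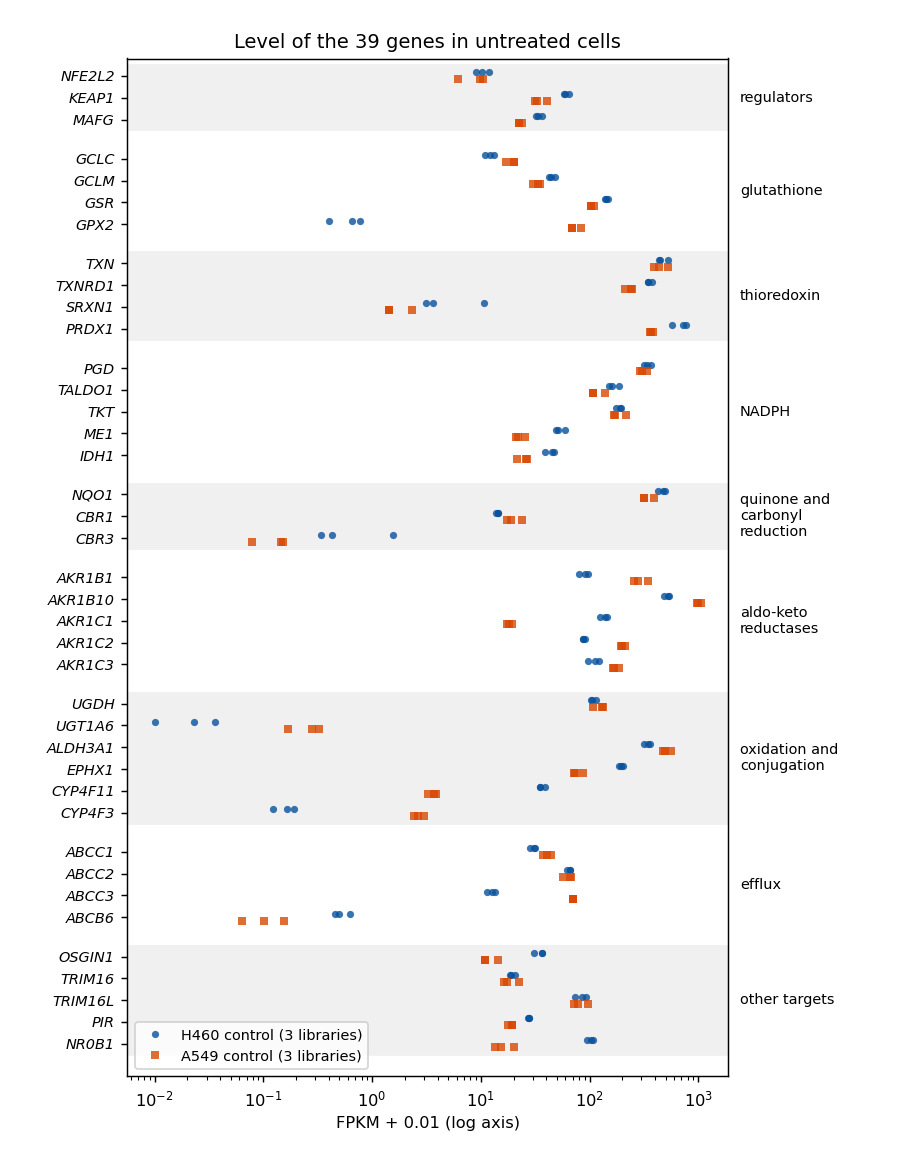
FPKM of the 39 genes in each of the 3 non-treated libraries of H460 (circles) and A549 (squares), on a log axis after adding 0.01, grouped by role. PRDX1, AKR1B10, TXN and NQO1 are among the highest in both lines, and GPX2, CYP4F3 and ABCC3 lie far to the right in A549.

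The core of the ARE, TGACNNNGC or its reverse complement GCNNNGTCA, was searched in the RefSeq promoters (GRCh38.p14, 250 bases before to 50 after each listed start) of the members. The table held a promoter for 31 of the 39 members, under 80%, so a count of matches over the battery is void, and only single promoters are described. None was listed for GSR, AKR1B10, ALDH3A1, PRDX1, CBR3, ABCC1, ABCC3 and TRIM16L, so these were not searched. Of all 35116 promoters, 13.3% held a match. Shown are windows before the start site, for members past 2-fold in a line and for GCLM and TXNRD1, whose responses set the lines apart. Each is written 5′ to 3′ on the strand of its gene with the match in capitals and 10 bases on each side, and a match describes the letters only. The windows lie at chr1:10398853-10398881 (PGD, + strand), chr1:93909446-93909474 (GCLM, - strand), chr1:225825266-225825294 (EPHX1, + strand), chr2:208255196-208255224 (IDH1, - strand), chr12:104215670-104215698 and chr12:104286920-104286948 (TXNRD1, + strand, 2 start sites), chr14:64942849-64942877 (GPX2, - strand), chr19:15935005-15935033 (CYP4F11, - strand) and chr21:36069855-36069883 (CBR1, + strand).
PGD: cctcgccgggGCAATGTCAtctaggtgct
GCLM: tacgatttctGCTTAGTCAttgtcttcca
EPHX1: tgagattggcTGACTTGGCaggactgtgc
IDH1: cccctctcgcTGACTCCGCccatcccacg
TXNRD1, upstream start: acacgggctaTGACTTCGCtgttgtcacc
TXNRD1, downstream start: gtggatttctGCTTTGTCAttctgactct
GPX2: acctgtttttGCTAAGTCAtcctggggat
CYP4F11: ctgtgcccatGCTGTGTCAccctgagctg
CBR1: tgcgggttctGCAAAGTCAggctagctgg
The matches shown began 34 bases (GCLM) to 201 bases (PGD) before the start site. The upstream TXNRD1 promoter held a further match, which began 8 bases before the start and runs across it, and is not shown. EPHX1, IDH1 and CYP4F11 also have listed promoters without a match. PIR held 1 match inside its transcribed first bases, and the listed promoters of NFE2L2, NQO1, NR0B1, AKR1C1, AKR1C2 and AKR1C3 held none. Bases further than 250 before a start were not searched, so a match there would be missed.

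NFE2L2 (chr2:177227595-177392697 in hg38) rose in H460 and not detectably in A549. In H460 it had 11.8, 8.96 and 10.3 FPKM in controls and 39.3, 63.9 and 28.5 after ISP-I. The 3 treated libraries lay above all controls and spread widely, and the mean rose 4.23-fold (1.91, SE 0.26, limma adjusted p 0.000228). In A549 the values were 10.4, 9.81 and 6.21 and 8.92, 10.4 and 10.3 FPKM, with overlap (0.18, SE 0.17, limma adjusted p 0.387). The response differed between the lines by 1.73, SE 0.35, limma adjusted p 0.00121, a difference of log2 fold changes (H460 minus A549, interaction in a fit of all 12 libraries). KEAP1 (chr19:10486125-10503558), the adaptor that holds NRF2 for degradation, had 58.6, 65.2 and 59.2 FPKM in H460 controls and 54.7, 43.2 and 54.9 after ISP-I. These groups did not overlap, yet the change did not pass (-0.26, SE 0.14, limma adjusted p 0.115), and its sign turned under median-of-ratios scaling (0.015). In A549 KEAP1 had 31.8, 32.9 and 40.7 FPKM in controls and 31.3, 33.9 and 33.5 after ISP-I, with overlap (-0.085, SE 0.099, limma adjusted p 0.487). MAFG, the small MAF partner, rose in A549 from 22.9 ± 0.769 to 27.3 ± 1.22 FPKM (0.24, SE 0.065, limma adjusted p 0.0126). In H460 it was 34.1 ± 2.35 and 40.5 ± 1.88 FPKM, which did not pass (0.24, SE 0.11, limma adjusted p 0.0842), while it passed under median-of-ratios scaling (0.52) and voom (0.53). The A549 rise was lost without ISP-I library 1 or 3 (0.22 and 0.24). Of the 39 members, 26 overlap another gene annotated by GENCODE, NFE2L2 and MAFG among them, and GPX2 (with CHURC1), EPHX1 (TMEM63A), CBR1 (SETD4), PIR (BMX) and OSGIN1 (MLYCD, on the same strand). The strand setting of the counting is not given in the sources used here, so reads of such pairs may be mixed. MAFG (SIRT7), TXNRD1 (EID3), SRXN1, ABCB6, TRIM16 and UGT1A6 also overlap a protein-coding gene on their own strand. No strand setting would separate reads of a shared stretch there, so these may be mixed or left out.

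Among the 4 glutathione genes, GSR fell in both lines and the other 3 separated them. GSR (chr8:30678066-30727846), which recycles oxidised glutathione with NADPH, had 139, 149 and 142 FPKM in H460 controls and 62.5, 53.9 and 49.9 after ISP-I. In A549 it had 104, 103 and 111 and 41.2, 40.2 and 38.7 FPKM. Every treated library of both lines lay below every control, and the log2 fold changes were -1.36, SE 0.13, limma adjusted p 2.81e-05 in H460 and -1.38, SE 0.065, limma adjusted p 1.79e-06 in A549. Their difference did not pass (0.021, SE 0.13, limma adjusted p 0.901) and its sign turned with single libraries left out. GPX2 (chr14:64939152-64942905) fell in A549 from 69.03, 69.4 and 83.04 to 9.61, 8.08 and 9.58 FPKM, 8.12-fold lower without overlap (-2.89, SE 0.098, limma adjusted p 5.08e-07). In H460 it was low in every group, with 0.485, 0.1602 and 0.3596 FPKM after ISP-I, that is 4 to 17 reads in each H460 library. The difference between the lines was 2.63, SE 0.18, limma adjusted p 2.79e-07, and with a pseudocount of 1 the H460 change of so low a gene is drawn toward 0.

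GCLC (chr6:53497341-53616970), the catalytic subunit of glutamate-cysteine ligase, which sets the pace of glutathione synthesis, had 20.2, 20.04 and 16.9 FPKM in A549 controls and 8.56, 9.52 and 9.44 after ISP-I. It fell there just under the 2-fold limit (-0.98, SE 0.088, limma adjusted p 4.34e-05) and passed it with voom (-1.08), with a pseudocount of 0.1 (-1.04) and narrowly under median-of-ratios scaling. In H460 it had 13.2, 10.9 and 12.1 and 13.02, 12.8 and 12.5 FPKM, with overlap (0.079, SE 0.11, limma adjusted p 0.544), and it rose there under median-of-ratios scaling (0.34) and voom (0.37). The difference of the response was 1.05, SE 0.13, limma adjusted p 3.45e-05, and it was 0.99 without H460 control library 2. GCLM (chr1:93885199-93909456), the modifier subunit of the same enzyme, had 48.2, 42.6 and 43.8 FPKM in H460 controls and 55.9, 59.4 and 52.9 after ISP-I. In A549 it had 35.4, 33.8 and 30.4 and 21.9, 21.8 and 22.9 FPKM. It thus rose in H460 (0.32, SE 0.12, limma adjusted p 0.0376) and fell in A549 (-0.56, SE 0.074, limma adjusted p 0.000345) without overlap in either, both under 2-fold, with a difference of 0.87, SE 0.12, limma adjusted p 8.4e-05. The H460 rise did not pass when any single H460 library other than ISP-I library 3 was left out (0.27 to 0.37). The summed level of the 4 genes went in H460 from 201 ± 1.72 to 125 ± 8.24 FPKM, and in A549 from 232 ± 8.17 to 80.5 ± 0.838.

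No thioredoxin gene passed 2-fold in either line, while 25.7% of all genes did in H460 and 7.71% in A549. PRDX1, an abundant peroxiredoxin that reduces hydrogen peroxide, was the highest of the class in H460 controls, with 767, 728 and 569 FPKM in H460 controls and 343, 307 and 447 after ISP-I. In A549 it had 382, 361 and 368 and 232, 252 and 239 FPKM. It fell in H460 (-0.92, SE 0.21, limma adjusted p 0.00388) and in A549 (-0.62, SE 0.072, limma adjusted p 0.000178) without overlap, and past 2-fold in H460 without library 3 of both groups (-1.20). TXNRD1, the selenoprotein that reduces thioredoxin with NADPH, rose in H460 from 372, 342 and 347 to 659.6, 675 and 614 FPKM (0.87, SE 0.15, limma adjusted p 0.000893). In A549 it was 240.5, 245 and 213 and 235, 232 and 243 FPKM, with overlap (0.025, SE 0.079, limma adjusted p 0.809). The difference of the response was 0.85, SE 0.14, limma adjusted p 0.000302, and the H460 rise was 1.16 and past 2-fold under median-of-ratios scaling and voom. TXN, thioredoxin itself, had 329, 316 and 587 FPKM after ISP-I in H460, so library 3 alone lay above the controls (525, 448 and 431), and it did not pass (-0.24, SE 0.25, limma adjusted p 0.409). Without library 3 of both H460 groups it fell (-0.59). In A549 TXN rose from 439, 395 and 522 to 565, 634 and 550.4 FPKM without overlap (0.37, SE 0.12, limma adjusted p 0.0259), a call lost under median-of-ratios scaling (0.34, adjusted p 0.058 by limma) and without any single A549 library other than control library 3 (0.28 to 0.42). SRXN1, which restores overoxidised peroxiredoxins, had 3.39, 2.54 and 12.7 FPKM after ISP-I in H460, where library 3 of each group was the high one (-0.026, SE 0.54, limma adjusted p 0.968), and it fell in A549 from 1.72 ± 0.517 to 0.948 ± 0.228 (-0.47, SE 0.14, limma adjusted p 0.0218). SRXN1 overlaps a protein-coding gene on its own strand, so its reads are uncertain. The summed level of the class was 1516 ± 155 and 1432 ± 199 FPKM in H460 and 1057 ± 51.4 and 1062 ± 49.2 in A549, with overlap in both.

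Of the 5 NADPH genes, 4 fell in each line, beside 41.5% of all genes in H460 and 27.0% in A549. PGD and IDH1, 2 of the 4, passed 2-fold in H460, as did 15.2% of all genes. PGD (chr1:10398592-10420511), an NADPH-producing enzyme of the oxidative pentose phosphate pathway, had 337, 364 and 314 FPKM in H460 controls and 139, 119 and 129 after ISP-I, 2.62-fold lower (-1.38, SE 0.14, limma adjusted p 3.92e-05). In A549 it had 292, 306 and 334 and 222, 211 and 213 FPKM, a smaller fall (-0.53, SE 0.078, limma adjusted p 0.000605), and the difference was -0.85, SE 0.14, limma adjusted p 0.000356. IDH1 (chr2:208236229-208266074), the cytosolic isocitrate dehydrogenase, had 47.1, 45.03 and 38.7 FPKM in H460 controls and 9.64, 8.92 and 7.72 after ISP-I. In A549 it had 25.7, 26.6 and 21.4 and 12.7, 12.4 and 12.5 FPKM. It fell 4.98-fold in H460 (-2.19, SE 0.13, limma adjusted p 2.18e-06) and 1.96-fold in A549 (-0.91, SE 0.088, limma adjusted p 6.28e-05) without overlap, narrowly past 2-fold with voom in A549. The difference was -1.28, SE 0.15, limma adjusted p 2.48e-05, and -0.99 under median-of-ratios scaling.

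TALDO1 and TKT belong to the non-oxidative pentose phosphate pathway. TALDO1 went from 165 ± 18.1 to 89.1 ± 19.5 FPKM in H460 (-0.90, SE 0.18, limma adjusted p 0.00212) and from 118 ± 17.4 to 75.6 ± 1.44 in A549 (-0.62, SE 0.10, limma adjusted p 0.00112). TKT went from 187 ± 11.4 to 139 ± 25.4 FPKM in H460 (-0.44, SE 0.17, limma adjusted p 0.041), a call lost under median-of-ratios scaling (-0.16), and from 185 ± 25.9 to 161 ± 6.31 in A549, where it did not pass (-0.19, SE 0.10, limma adjusted p 0.151). ME1, the cytosolic malic enzyme, was 53.1 ± 5.29 and 58.2 ± 4.45 FPKM in H460, which did not pass (0.13, SE 0.13, limma adjusted p 0.385) but was a rise under that scaling (0.41) and voom (0.41), and it fell from 22.7 ± 2.22 to 18.7 ± 1.24 in A549 (-0.27, SE 0.087, limma adjusted p 0.0294). Summed over the class, the level was 787 ± 48.6 and 424 ± 45.9 FPKM in H460 and 660.2 ± 60.9 and 483 ± 2.68 in A549, every treated library below every control.

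NQO1, the quinone reductase most often used as a readout of NRF2, was the highest of the 3 quinone and carbonyl reductases. It had 476, 498 and 421 FPKM in H460 controls and 264, 221 and 308 after ISP-I. In A549 it had 318, 318 and 393 and 247, 269.8 and 265 FPKM. It fell less than 2-fold in H460 (-0.82, SE 0.17, limma adjusted p 0.00287) and A549 (-0.39, SE 0.10, limma adjusted p 0.0113) without overlap, and the difference did not pass (-0.44, SE 0.20, limma adjusted p 0.0803), while it did without ISP-I library 3 of H460 (-0.55) or control library 3 of A549 (-0.54). The A549 fall of NQO1 was lost without ISP-I library 1 there (-0.35). CBR1 (chr21:36069941-36073166), a carbonyl reductase, had 14.5, 14.3 and 13.8 FPKM in H460 controls and 4.75, 5.39 and 6.22 after ISP-I (-1.24, SE 0.12, limma adjusted p 2.88e-05). Its treated libraries lay far below the controls, and the change was -0.998, just under 2-fold, with median-of-ratios scaling. In A549 CBR1 had 18.7, 17.3 and 23.99 and 13.6, 15.6 and 14.4 FPKM (-0.43, SE 0.12, limma adjusted p 0.0147), and the difference was -0.82, SE 0.17, limma adjusted p 0.00144. CBR3 was low in each group, with 1 to 24 reads in a library, and overlapped in both lines.

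Of the 5 aldo-keto reductases, 4 fell past 2-fold in H460 and 1 in A549, beside 15.2% and 3.51% of all genes. Under median-of-ratios scaling 2 and 1 did so (11.3% and 3.7% of all genes), and likewise with voom (20.9% and 9.65%). AKR1B10 (chr7:134527567-134541412), which reduces retinal and lipid aldehydes, had 538, 532 and 486 FPKM in H460 controls and 92.2, 80.5 and 98.2 after ISP-I. In A549 it had 999, 979 and 1052 and 283, 308 and 299 FPKM. The groups were far apart in both lines, and AKR1B10 fell 5.74-fold in H460 (-2.51, SE 0.14, limma adjusted p 1.85e-06) and 3.41-fold in A549 (-1.76, SE 0.080, limma adjusted p 1.61e-06). The difference was -0.75, SE 0.15, limma adjusted p 0.00122. AKR1B1, aldose reductase, fell in H460 from 89.3 ± 8.51 to 61.9 ± 12.3 FPKM (-0.54, SE 0.17, limma adjusted p 0.0186), which did not pass under median-of-ratios scaling (-0.26), and in A549 from 294 ± 46.6 to 222 ± 8.002 (-0.39, SE 0.11, limma adjusted p 0.0176).

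The AKR1C genes lie side by side on chromosome 10, and their products act on steroids and prostaglandins. AKR1C1 (chr10:4963253-4983283) had 143, 138 and 125 FPKM in H460 controls and 68.97, 60.1 and 71.4 after ISP-I. In A549 it had 17.5, 17.97 and 19.4 and 26.7, 28.7 and 28.8 FPKM. It fell in H460 (-1.01, SE 0.13, limma adjusted p 0.000168) and rose in A549 (0.59, SE 0.070, limma adjusted p 0.000182) without overlap, a difference of -1.60, SE 0.13, limma adjusted p 1.23e-06. AKR1C2 (chr10:4987400-5018031) had 91.6, 87.5 and 87.6 FPKM in H460 controls and 27.7, 26.2 and 33.3 after ISP-I (-1.59, SE 0.13, limma adjusted p 1.04e-05). In A549 it had 199, 196 and 214 and 221, 234 and 222 FPKM, which did not pass (0.15, SE 0.071, limma adjusted p 0.0969), and the difference was -1.74, SE 0.14, limma adjusted p 9.5e-07. AKR1C3 (chr10:5035354-5107686) had 121, 111 and 96.2 FPKM in H460 controls and 53.3, 48.7 and 57.8 after ISP-I (-1.02, SE 0.14, limma adjusted p 0.000203). In A549 it had 169, 163 and 186 and 129, 141 and 134 FPKM (-0.35, SE 0.077, limma adjusted p 0.00462), and the difference was -0.67, SE 0.15, limma adjusted p 0.00264, which did not pass under median-of-ratios scaling (-0.36). The H460 falls of AKR1C1 and AKR1C3 sat at the 2-fold limit, and under that scaling they were -0.73 and -0.75. Leaving out single H460 libraries gave -1.07 to -0.94 for AKR1C1 and -1.11 to -0.95 for AKR1C3. These genes are closely similar copies, so reads may have been split between them and their separate values are uncertain.

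**Figure D3:**
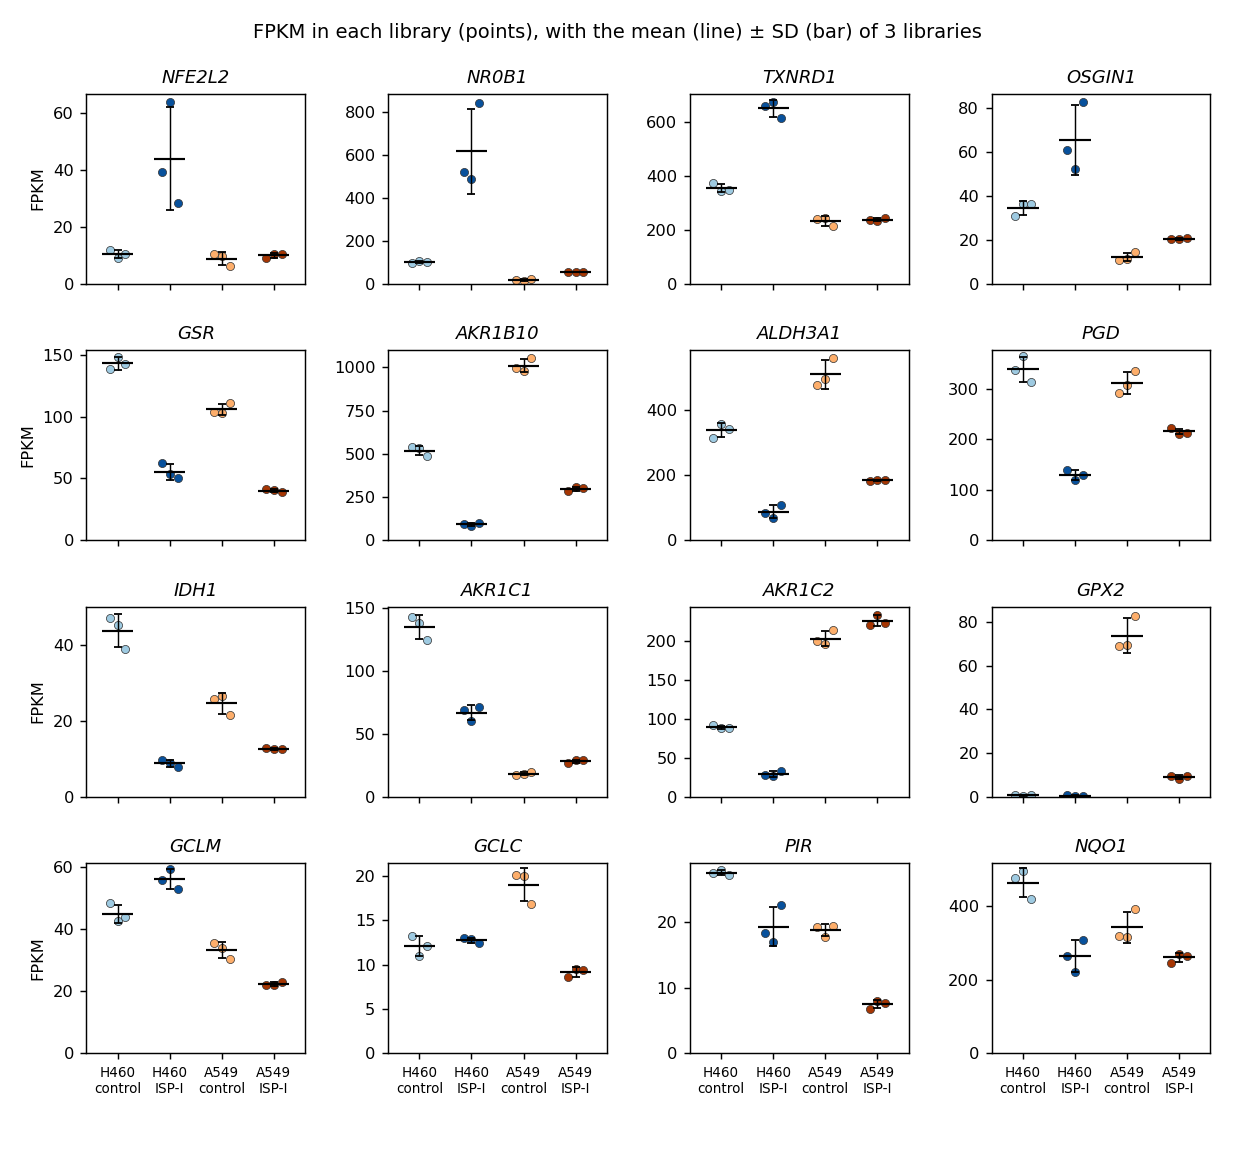
FPKM of 16 members in each library (points), with the mean (line) and SD (bar) of 3 libraries, for the 4 groups named on the x axis; each panel has its own y axis from 0. GSR, AKR1B10 and ALDH3A1 drop in both lines, AKR1C1 drops in H460 and rises in A549, GPX2 is nearly absent from H460, and the ISP-I libraries of NFE2L2 and NR0B1 in H460 spread widely above their controls.

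Of the enzymes of oxidation and conjugation, ALDH3A1 (chr17:19737984-19748943), an aldehyde dehydrogenase, was the highest. It had 316, 357 and 343 FPKM in H460 controls and 84.9, 68.6 and 108 after ISP-I. In A549 it had 478, 496 and 561 and 184, 185 and 185 FPKM. It fell in H460 (-1.97, SE 0.18, limma adjusted p 2.26e-05) and in A549 (-1.46, SE 0.083, limma adjusted p 4.44e-06) without overlap, and the difference did not pass (-0.51, SE 0.20, limma adjusted p 0.0532), while it did without ISP-I library 3 of H460 (-0.67) or control library 3 of A549 (-0.57). EPHX1 (chr1:225810092-225845563), the microsomal epoxide hydrolase, had 186, 204 and 193 FPKM in H460 controls and 60.6, 50.6 and 60.4 after ISP-I (-1.75, SE 0.13, limma adjusted p 7.06e-06). In A549 it had 72.1, 73 and 87.2 and 50.7, 51.8 and 51.5 FPKM (-0.58, SE 0.084, limma adjusted p 0.00058). The difference was -1.17, SE 0.14, limma adjusted p 2.95e-05, and -0.86 under median-of-ratios scaling.

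CYP4F11 (chr19:15912367-15934867) had 1.03, 1.09 and 1.06 FPKM after ISP-I in A549, all below the controls (3.89, 3.73 and 3.28), and fell past 2-fold (-1.17, SE 0.080, limma adjusted p 1.13e-05). In H460 it had 35.05, 34.9 and 38.98 and 19.8, 18.6 and 18.1 FPKM (-0.91, SE 0.11, limma adjusted p 0.000109), and the difference did not pass (0.26, SE 0.12, limma adjusted p 0.0784) except in some alternatives (0.74 with a pseudocount of 0.1, 0.52 under median-of-ratios scaling and 1.14 with voom). CYP4F3, a related hydroxylase of leukotrienes, was 2.68 ± 0.2798 and 3.18 ± 0.282 FPKM in A549, which did not pass, and was not tested in H460, where 9 to 15 reads in a control library and 0 to 2 in a treated one were found. UGDH, which makes the UDP-glucuronic acid used in glucuronidation, was 108 ± 5.92 and 129 ± 16.1 FPKM in H460, which did not pass (0.26, SE 0.14, limma adjusted p 0.13) but was a rise under median-of-ratios scaling and voom (0.54 in both), and it fell from 124 ± 13.3 to 96.05 ± 2.905 in A549 (-0.36, SE 0.089, limma adjusted p 0.00917). UGT1A6, a glucuronosyltransferase, had 12 to 24 reads in an A549 control and 2 to 11 after ISP-I (-0.23, SE 0.070, limma adjusted p 0.0232) and at most 2 in any H460 library. The A549 fall was past 2-fold with a pseudocount of 0.1 (-1.09) and voom (-2.05). It shares exons with other UGT1A genes, so its reads are uncertain.

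No efflux pump passed 2-fold in either line on log2(FPKM + 1), while 25.7% of all genes did in H460 and 7.71% in A549. ABCC2, an exporter of conjugates, was the highest of the class in H460, with 66.2, 65.7 and 62.5 FPKM in controls and 53.7, 63.6 and 40.04 after ISP-I, which overlapped and did not pass (-0.32, SE 0.17, limma adjusted p 0.121). In A549 it fell from 66.3, 67.1 and 57.5 to 41.6, 39.1 and 38.7 FPKM (-0.66, SE 0.079, limma adjusted p 0.000197). ABCC3, the highest in A549, had 70.9, 70.2 and 69.8 FPKM there in controls and 65.4, 62.1 and 63.5 after ISP-I, which did not pass (-0.14, SE 0.059, limma adjusted p 0.0738). In H460 ABCC3 rose from 11.4, 12.7 and 13.4 to 19.8, 22.1 and 20.5 FPKM without overlap (0.69, SE 0.11, limma adjusted p 0.000629), a difference of 0.83, SE 0.11, limma adjusted p 6.63e-05. With voom that rise was 1.019 and past 2-fold. ABCC1, which exports glutathione conjugates, fell from 30.2 ± 1.73 to 22.4 ± 3.41 FPKM in H460 (-0.42, SE 0.14, limma adjusted p 0.0223), a call lost under median-of-ratios scaling (-0.15), and from 40.6 ± 3.41 to 24.6 ± 0.673 in A549 (-0.70, SE 0.076, limma adjusted p 0.000118). ABCB6, a porphyrin transporter, was low in both lines. It fell in H460 from 0.514 ± 0.0927 to 0.0746 ± 0.0657 FPKM (-0.49, SE 0.073, limma adjusted p 0.000381), with at least 35 reads in each control library and at most 14 in a treated one. That fall was past 2-fold with a pseudocount of 0.1 (-1.87) and voom (-2.66). ABCB6 had 4 to 11 reads in an A549 library. It overlaps a protein-coding gene on its own strand, so its reads are uncertain.

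Of the 5 remaining targets, 4 rose in both lines and PIR fell in both, beside 17.7% and 21.4% of all genes tested in both. NR0B1 (chrX:30304206-30309390), an orphan nuclear receptor also called DAX1, had 95.3, 107 and 102 FPKM in H460 controls and 517, 485 and 842 after ISP-I. In A549 it had 15.2, 13.4 and 19.99 and 53.6, 53.5 and 54.3 FPKM. All treated libraries lay above all controls, library 3 of H460 highest, and the mean rose 6.06-fold in H460 (2.54, SE 0.22, limma adjusted p 1.53e-05) and 3.33-fold in A549 (1.69, SE 0.13, limma adjusted p 1.7e-05). The difference was 0.85, SE 0.27, limma adjusted p 0.0169. Without library 3 of both H460 groups the H460 change was 2.30.

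OSGIN1, an oxidative stress-induced growth inhibitor, had 30.9, 36.3 and 36.2 FPKM in H460 controls and 60.7, 52.3 and 82.8 after ISP-I. In A549 it had 10.9, 10.98 and 14.4 and 20.1, 20.3 and 20.8 FPKM. It rose in both lines without overlap (0.88, SE 0.18, limma adjusted p 0.00212 in H460 and 0.72, SE 0.10, limma adjusted p 0.000583 in A549), past 2-fold in H460 under median-of-ratios scaling (1.16) and voom (1.18). TRIM16 and TRIM16L, near-identical copies between which reads may be split, rose by 0.42 and 0.52 in H460 and by 0.53 and 0.41 in A549 on the log2 scale (limma adjusted p 0.0391 and 0.00881, then 0.00408 and 0.0101). The TRIM16 rise in H460 did not pass without library 3 of both groups (0.25), or with any single H460 library other than ISP-I library 2 left out. PIR (chrX:15384799-15493564), the iron-binding nuclear protein pirin, went the other way, from 19.3, 17.7 and 19.4 FPKM in A549 controls to 6.798, 7.92 and 7.69 after ISP-I (-1.23, SE 0.079, limma adjusted p 8.34e-06). In H460 it had 27.5, 27.99 and 27.2 and 18.4, 16.9 and 22.7 FPKM (-0.50, SE 0.13, limma adjusted p 0.00802), a fall that did not pass under median-of-ratios scaling (-0.23), and the difference was 0.72, SE 0.15, limma adjusted p 0.00124.

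Summed over the 39 members, the battery took 1.93 ± 0.0985% of all FPKM in H460 controls and 1.58 ± 0.0529% after ISP-I, and 2.02 ± 0.0425% and 1.37 ± 0.02299% in A549. In this share every treated library lay below every control in both lines, and a share of its own library does not change with scaling. Median-of-ratios scaling moved the H460 changes of the members by a median of 0.278. The sums of FPKM here and above were not taken under that scaling, so the order of the H460 libraries in these sums is known only for unscaled values. The aldo-keto reductases had the widest difference in absolute level, in H460 from 942 ± 58.8 to 301 ± 34.9 FPKM and in A549 from 1698 ± 107 to 907 ± 31.4, most of it AKR1B10. The enzymes of oxidation and conjugation summed to 677 ± 24.3 FPKM in H460 controls and 292 ± 8.37 after ISP-I, and to 719.5 ± 39.5 and 336 ± 4.196 in A549. Quinone and carbonyl reduction summed to 480.1 ± 38.97 FPKM in H460 controls and 270.4 ± 44.9 after ISP-I, and to 363 ± 46.7 and 275 ± 13.03 in A549. The efflux sum was 108 ± 1.79 and 95.8 ± 15.1 FPKM in H460, with overlap, and 175 ± 6.897 and 128 ± 3.78 in A549. The sum of the remaining targets went in H460 from 267 ± 15.1 to 847 ± 216 FPKM, most of it NR0B1, and in A549 it was 148 ± 21.02 and 217 ± 5.15. A sum follows its most abundant members and was not tested.

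**Figure D4:**
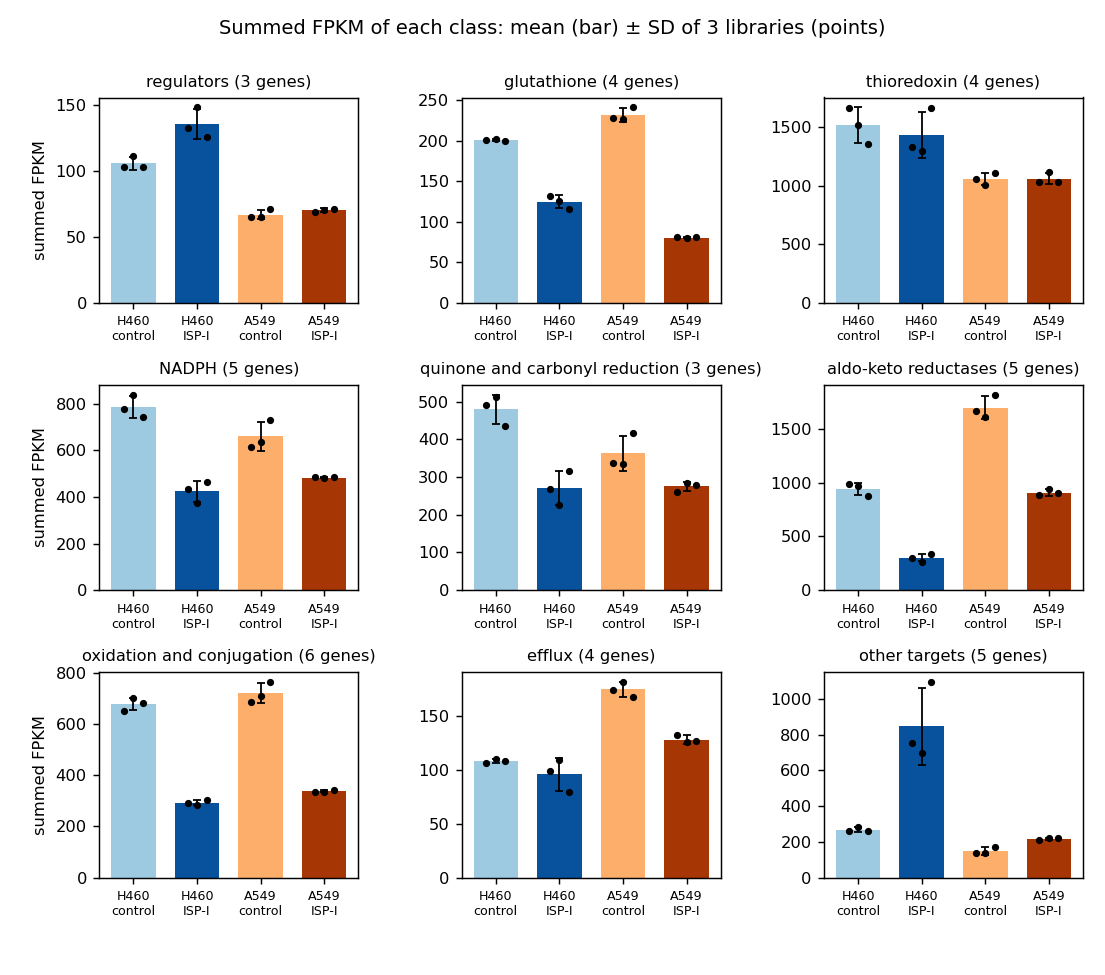
Summed FPKM of each class of members (bars, mean of 3 libraries, with SD and each library as a point) in the 4 groups, each panel with its own y axis from 0. The aldo-keto, glutathione, oxidation and NADPH panels are lower after ISP-I in both lines, the thioredoxin points of a line overlap, and the remaining targets are highest in H460 after ISP-I.

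Of 38 members tested, 7 responded differently in H460 and A549 by over 2-fold (limma interaction, adjusted p under 0.05), 3 with the higher response in H460 (NFE2L2, GCLC and GPX2) and 4 with the lower (IDH1, AKR1C1, AKR1C2 and EPHX1). Of all 13953 genes tested, 5.93% had the higher and 10.1% the lower response in H460, so on unscaled FPKM both counts were close to the background. Under median-of-ratios scaling the counts were 8 and 2 (9.32% and 5.93% of all genes), and with voom on recovered reads 9 and 5 (14.8% and 13.3%). In both alternatives the count with the higher response was above the share of all genes, and the other was close to it. At any fold change, 15 members fell and 4 rose in both lines, beside 21.4% and 17.7% of the 12708 genes tested in both, and GCLM and AKR1C1 moved in opposite directions. NFE2L2, TXNRD1 and ABCC3 rose in H460 and did not pass in A549, and their differences passed at any fold.

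Genes of the pathway outside the 39 were taken from a list of 10 regulators and 27 targets. Of the regulators, 4 rose past 2-fold in H460 (SQSTM1, BACH1, MAFF and MAFK) and 1 fell (NFE2L1), and 2 rose in A549 (SQSTM1 and MAFF). Of all genes tested, 10.5% rose and 15.2% fell past 2-fold in H460, and 4.2% rose and 3.51% fell in A549. SQSTM1 encodes p62, an autophagy receptor that also binds KEAP1, and it had 245, 279 and 271 FPKM in H460 controls and 1641, 1370 and 1898 after ISP-I (2.61, SE 0.19, limma adjusted p 5.5e-06). In A549 it had 139.5, 144 and 156 and 897, 877 and 939 FPKM (2.62, SE 0.079, limma adjusted p 3.59e-07). MAFF, a small MAF protein, rose from 0.684 ± 0.0783 to 29.2 ± 7.23 FPKM in H460 (4.14, SE 0.17, limma adjusted p 4.39e-07) and from 1.28 ± 0.0563 to 7.55 ± 0.684 in A549 (1.90, SE 0.086, limma adjusted p 1.54e-06). NFE2L1, a relative of NFE2L2, fell from 66.9 ± 5.49 to 14.5 ± 0.607 FPKM in H460 (-2.12, SE 0.11, limma adjusted p 1.44e-06).

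Of the other targets, 3 rose (HMOX1, SLC3A2 and RIT1) and 5 fell (BLVRA, FECH, GSTP1, GSTA4 and ABCC5) past 2-fold of 24 tested in H460. The shares of all genes there were 10.5% and 15.2%. In A549 1 rose (HMOX1) and 2 fell (SLC7A11 and CAT) of 26, beside 4.2% and 3.51% of all genes. HMOX1, haem oxygenase 1, had 49.97, 57.8 and 51.9 FPKM in H460 controls and 2668, 2414 and 3636 after ISP-I (5.72, SE 0.19, limma adjusted p 2.23e-07). In A549 it had 40.6, 41.6 and 51.9 and 442, 448 and 506 FPKM (3.36, SE 0.11, limma adjusted p 3.86e-07). It thus rose while NQO1, with which it is often paired as an NRF2 readout, fell in both lines. SLC7A11, the cystine importer that feeds glutathione synthesis, was 35.4 ± 5.61 and 27.5 ± 6.03 FPKM in H460, which did not pass (-0.36, SE 0.18, limma adjusted p 0.101), and fell from 21.5 ± 4.596 to 9.17 ± 0.372 in A549 (-1.12, SE 0.14, limma adjusted p 0.000291). FECH, the last enzyme of haem synthesis, fell in H460 from 9.53 ± 0.125 to 1.77 ± 0.02803 FPKM (-1.93, SE 0.10, limma adjusted p 1.28e-06), and CAT, catalase, fell in A549 from 22.6 ± 0.452 to 6.45 ± 0.0758 (-1.67, SE 0.062, limma adjusted p 7.03e-07).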

How the data were processed

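RNA-seq libraries of H460 and A549 cells, control or ISP-I (10 µM, 48 h), were prepared with a TruSeq kit. Per the labels and the study's methods, the authors ran FastQC on the reads, aligned with HISAT2 to hg38, took gene counts with HTSeq 0.9.1 and deposited FPKM values in 1 table. The annotation version and strand setting are not given in the sources used here. The table also holds the authors' gene length in bases. Of 19977 lines, 4 named no gene and were left out. FPKM times length was a whole number of reads (within 0.01 reads) for 100% of values, so reads were recovered. Depth was 14225849 to 17874422 reads per library.

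Columns named the line and treatment only, so libraries were grouped by these. The log2(FPKM + 1) values were compared with limma 3.58.1 (R 4.3.3, with a trended prior variance), keeping genes whose mean reached 0.1 FPKM, in each line, between controls and, for the difference, as an interaction over 12 libraries. P values were adjusted by Benjamini-Hochberg over all genes tested. The pseudocount of 1 draws changes of low genes toward 0. Alternatives were median-of-ratios scaling, a pseudocount of 0.1, a minimum mean of 1 FPKM, all genes unfiltered, limma voom on recovered reads, 1 fit of all libraries, and leaving out libraries. Scripts were tested on simulated data. 1 gene of the pathway list is not reported here. The members, classes and lists were chosen with earlier results of these data known. Given per library are, for each class, the members past 2-fold in a line or in the difference and the member with the highest mean, always NFE2L2 and KEAP1. Further members were added after their values were seen (GCLM, PRDX1, TXNRD1, SRXN1, ABCC3 and OSGIN1).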

Additional observations from a re-analysis of the deposited data

Results flagged for a closer look

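For 7 members the responses of H460 and A549 to ISP-I were over 2-fold apart in the limma interaction with Benjamini-Hochberg adjustment (adjusted p and library values stand with each gene in the results). Of all genes tested, 5.93% had the higher and 10.1% the lower response in H460, so on unscaled FPKM the counts of members were close to the background. Under median-of-ratios scaling 8 of 38 members had the higher response (9.32% of all genes), and with voom 9 did (14.8%), above the background in both. The difference of log2 fold changes, H460 minus A549, was 1.73 for NFE2L2, 1.05 for GCLC and 2.63 for GPX2. It was -1.28 for IDH1, -1.60 for AKR1C1, -1.74 for AKR1C2 and -1.17 for EPHX1. In H460 every NFE2L2 library after ISP-I lay above the controls, while A549 overlapped. The values for GCLC and GPX2 go with falls in A549, and those for IDH1 and EPHX1 with falls in both lines, deeper in H460. AKR1C1 fell in H460 and rose in A549. Groups of 3 libraries were not tested for outlying samples.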

How the results depend on the processing

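Of 1737 comparisons of single members under the alternatives, 1647 kept their direction and side of the threshold of 2-fold and adjusted p. These took in every member tested in the response of a line. For the baseline and the difference they took in only members whose adjusted p was under 0.05, with NQO1, ALDH3A1, CYP4F11 and GSR added for the difference. Other members that did not pass there were not counted, among them the 8 named below whose sign turned. Median-of-ratios scaling gave 4 members higher in H460, and 8 higher and 2 lower in the difference between the lines. Limma voom on recovered reads gave 5 higher in H460 and 9 higher in the difference. For all genes, that scaling gave 1957 higher and 1511 lower in H460, against 1409 and 2047, and voom called 3161 and 2805 in H460 and 1387 and 1322 in A549. The other counts of members stayed within 1.5 times. With single libraries left out, members lower ranged from 8 to 12 in H460 and from 6 to 8 in A549. In the main fits 15.2% and 3.51% of all genes were lower past 2-fold. In the responses of each line, signs turned for members that did not pass: with median-of-ratios scaling KEAP1 (0.015), TXN (0.038), SRXN1 (0.21) and CBR3 (0.054) in H460 and TXNRD1 (-0.0088) in A549, and with voom KEAP1 (0.015), TXN (0.037) and SRXN1 (0.20) in H460 and TXNRD1 (-0.0089) in A549. Leaving out single libraries gave both signs to SRXN1 (-0.63 to 0.45) and CBR3 (-0.40 to 0.24) in H460 and to CBR3 (-0.039 to 0.019), ABCB6 (-0.013 to 0.028), NFE2L2 (-0.029 to 0.30), KEAP1 (-0.15 to 0.024) and TXNRD1 (-0.038 to 0.063) in A549. In the difference between the lines, median-of-ratios scaling and voom each turned the sign of 8 members that had not passed (KEAP1, MAFG, PRDX1, TALDO1, TKT, CBR3, AKR1B1 and TRIM16). Single libraries left out gave both signs there to GSR (-0.067 to 0.092), MAFG, CBR3, TRIM16, TRIM16L, SRXN1 and OSGIN1, which had not passed either. In the baseline difference they did so for TXN, TKT, TRIM16, TRIM16L and ABCC2, again without a call. At any fold, median-of-ratios scaling and voom each lost the H460 calls of TKT, AKR1B1, ABCC1 and PIR and gained MAFG, GCLC, ME1 and UGDH. With no filter, TKT, AKR1B1 and TRIM16 were lost in H460 and TXN, SRXN1, ME1, CBR1, AKR1B1 and UGT1A6 in A549, and 1 fit of all libraries lost TXN and SRXN1 in A549. With single libraries left out, H460 had 6 to 8 members higher and 17 to 21 lower at any fold, and A549 had 5 to 8 higher and 18 to 24 lower. The calls lost in 1 or more of these fits were GCLM, TKT, AKR1B1, ABCC1 and TRIM16 in H460 and MAFG, TXN, SRXN1, ME1, NQO1, CBR1, AKR1B1 and UGT1A6 in A549. The cause was not tested. No paired analysis was possible because the columns carry no replicate number of the labels. Members under 1 FPKM rest on few reads, where depth limits any change.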
